A study of Homo sapiens with 2 samples.

Results

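The cells described here are otic epithelial cells of human inner ear organoids in which transcripts of GPC5 and IRX3 outweigh those of other sets of otic genes. They number 1447 barcodes in the library from organoids grown in GelNB-CH and 852 in the library from organoids grown in Matrigel, which is 2299 of the 32655 barcodes deposited. A barcode had to hold at least 1000 genes and at most 15% mitochondrial UMIs (unique molecular identifiers, each standing for 1 captured transcript). The otic gate then required at least 5 UMIs of OC90 (ENSG00000253117), which encodes the main otoconial matrix protein. It also required fewer than 5 UMIs of the fibroblast collagen COL1A2, fewer than 3 of the glial cadherin CDH19 and fewer than 3 of the cell cycle genes MKI67, TOP2A and UBE2C together. Last, GPC5 (ENSG00000179399) plus IRX3 (ENSG00000177508) had to reach 3 UMIs and to exceed each of 3 other sums, namely CALB1 with WIF1, HMX2 and MYBPC1, OTX2 with GSC, CASC17 and ATP13A5, and NPY with CITED1, ATP6V0D2 and CA2. These cells are called GPC5 IRX3 cells below, and all other cells that passed the otic gate are called the other gated otic cells. The make-up of the latter differed between the libraries. Cells led by the OTX2 sum under the same rule were 969 of 4781 in GelNB-CH but 102 of 1194 in Matrigel. Since the cells were chosen by these transcripts, their levels are given as a description and carry no test.

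Glypicans are heparan sulfate proteoglycans that a lipid anchor holds at the cell surface, where they bind growth factors and morphogens such as Hedgehog, WNT, BMP and FGF ligands. GPC5 is 1 member of that family. IRX3 belongs to the Iroquois homeodomain transcription factors, which pattern many embryonic tissues and lie in gene clusters. The otic vesicle gives rise to the sensory and non-sensory epithelia of the inner ear, and genes of region-specific factors mark its dorsal, ventral and lateral walls during development.

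Both libraries came from the human embryonic stem cell line WA25 carrying a SOX2 nuclear tdTomato reporter (cell line labels SOX2nT and SOX2nt), sorted for the reporter on day 40. The matrix under study was GelNB-CH, a hydrogel set under ultraviolet light with the photoinitiator LAP and the crosslinker PEG4SH. It was set against Matrigel, a basement membrane extract. By the labels both groups shared all other agents, from FGF-2, SB-431542, BMP-4 and dilute Matrigel at the start, through LDN193189 and CHIR99021, to a maturation medium after embedding on day 11. The growth text of the Matrigel library is the same as that of the GelNB-CH library and describes embedding in GelNB-CH, so the Matrigel group rests on the title and the treatment label. There was 1 library per matrix, from 1 cell line, and the labels do not say how many organoids were pooled. Matrix, culture and library therefore cannot be told apart, no test between matrices was possible, and each interval below is a 95% interval that covers counting error only.

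In total 247006223 UMIs over 21743 barcodes were deposited for GelNB-CH, against 178672097 UMIs over 10912 barcodes for Matrigel. Of these barcodes 21319 and 10499 passed the gene and mitochondrial limits. The GPC5 IRX3 cells had a median of 12039 UMIs and 4132 genes in GelNB-CH, against 17556 UMIs and 5125.5 genes in Matrigel, so the Matrigel cells carried more UMIs per cell. The libraries shared 78 barcode sequences, which were carried by 6 of the GelNB-CH members and 11 of the Matrigel members but by no member in both. The doublet caller Scrublet marked 189 GelNB-CH members (13.1%) and 27 Matrigel members (3.17%), and the counts and ratios that move most without them are given beside the result.

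The label of otic epithelium was checked with markers that the rule did not use. After every cell was thinned to 5000 UMIs, EPCAM, an adhesion molecule of epithelia, was detected in 77.8% of GelNB-CH members, against 75.1% of Matrigel members. The shares in cells with at least 20 UMIs of COL1A2 and fewer than 50 of OC90 were 5.03% and 2.61%. These cells had median depths of 11581 and 17083 UMIs. Scrublet marked 22.1% of them in GelNB-CH and 9.90% in Matrigel, so their shares may hold doublets as well as free RNA. PAX2, an early otic transcription factor, was found in 77.8% and 81.4% of members, against 11.9% and 7.60% of the COL1A2-rich cells. PAX8, its early partner, was found in 3.65% and 3.33% of members. EPCAM and PAX2 thus stood far above the mesenchymal cells, whereas PAX8 was sparse. SOX2, the gene of the sorted reporter, was found in 4.72% and 7.36% of members, against 5.88% and 10.6% of the other gated otic cells and 2.89% and 3.50% of the COL1A2-rich cells. POU4F3, the hair cell transcription factor, had 1 UMI in all GelNB-CH members and 2 UMIs in all Matrigel members.

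Within the members, the sum of GPC5 and IRX3 had a median of 10 UMIs in GelNB-CH (range 3 to 469) and 17 UMIs in Matrigel (range 3 to 795). GPC5 had a median of 7 and 9 UMIs in GelNB-CH and Matrigel members, and IRX3 a median of 3 and 5. Both genes were present in 998 GelNB-CH members (69.0%) and 628 Matrigel members (73.7%). GPC5 without IRX3 was seen in 292 and 82 members, and IRX3 without GPC5 in 157 and 142. Most members thus carried both transcripts, and the GelNB-CH library held relatively more cells with GPC5 alone. Members just inside the limit, at a sum of 3 UMIs, numbered 166 in GelNB-CH and 51 in Matrigel, and 182 and 59 gated cells just outside it had a sum of 2 UMIs above every other sum. IRX5, which the rule did not use, stood at 46.2 CPM (a gene's UMIs summed over the cells of a set and scaled to a common total per set) just inside and 42.2 CPM just outside in GelNB-CH, and at 33.8 and 34.0 CPM in Matrigel. SLITRK6 stood at 38.5 CPM inside and 33.6 CPM outside in GelNB-CH, but at 79.7 and 30.4 CPM in Matrigel, and CADPS2 in Matrigel ran the other way, at 77.0 and 134 CPM. The GPC5 and IRX3 sum made up a median of 77.8% of the 4 sums in GelNB-CH members and 90.0% in Matrigel members, and 249 (17.2%) and 218 (25.6%) members had none of the other 3 sums.

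GPC5 IRX3 cells made up 23.2% of the gated otic cells in GelNB-CH (1447 of 6228, exact Clopper-Pearson interval 22.2 to 24.3%) and 41.6% in Matrigel (852 of 2046, 39.5 to 43.8%). Over all kept cells the shares lay closer, at 6.79% in GelNB-CH (6.45 to 7.13%) and 8.12% in Matrigel (7.60 to 8.65%). The library with more UMIs per cell thus had the larger share on both bases. When every cell was thinned to 5000 UMIs before the rule was applied, the shares of gated cells were 17.2% in GelNB-CH and 31.7% in Matrigel, and with GPC5 as the only member gene they were 16.3% and 28.3%. A share of sorted and gated cells depends on the sort and on the numbers of all other cells, and the role of either was not tested.

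**Figure D1:**
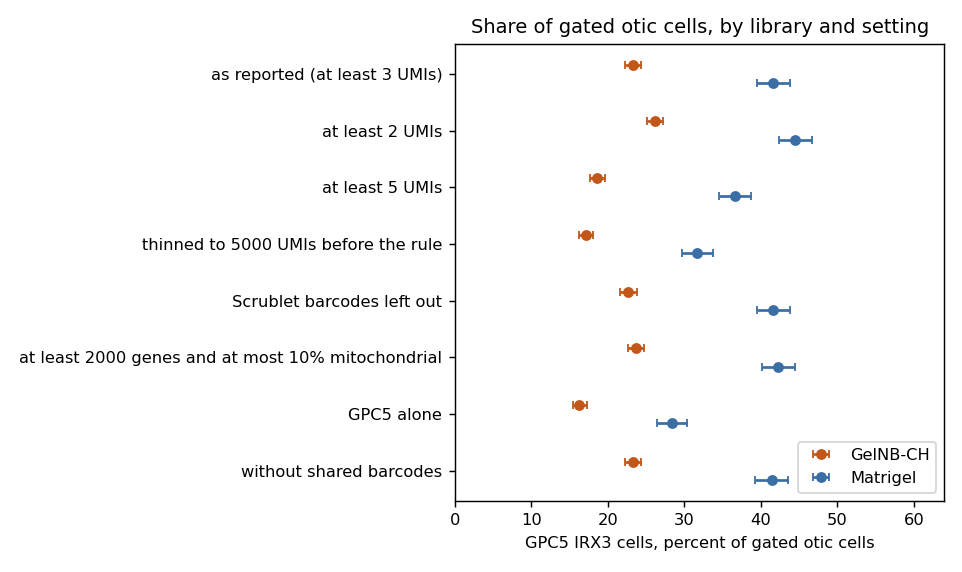
Share of GPC5 IRX3 cells among gated otic cells (percent, horizontal axis) in the GelNB-CH and Matrigel libraries under each form of the rule (vertical axis). Points are the shares and bars are exact 95% binomial intervals; the share reads 23.2% in GelNB-CH and 41.6% in Matrigel as reported, and the GelNB-CH point lies left of the Matrigel point under each setting shown.

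The Iroquois genes that neighbour IRX3 were higher in these cells, whereas IRX1 and IRX2 of the second Iroquois cluster had ratios of 1.06 to 1.23. IRX3 (16:54283304-54286763, minus strand, in GRCh38 by GENCODE v29) lies on chromosome 16 with IRX5 (16:54930862-54934485), IRX6 (16:55323760-55330760), the long non-coding RNA gene CRNDE (16:54845189-54929189) and FTO (16:53701692-54158512). IRX5 (ENSG00000176842), which encodes a homeodomain factor close to IRX3, stood at 74.7 CPM in GelNB-CH members and 24.9 CPM in the other gated otic cells, a ratio of 3.00 (2.79 to 3.23). In Matrigel it stood at 101 CPM in members and 17.2 CPM in the others, a ratio of 5.90 (5.26 to 6.63). IRX5 was thus the gene with the largest Matrigel ratio among the 12 named as higher in members. CRNDE (ENSG00000245694), transcribed from the strand opposite to IRX5, stood at 178 CPM in members and 84.3 CPM in the others in GelNB-CH, a ratio of 2.11 (2.02 to 2.20). In Matrigel the CRNDE values were 229 and 84.7 CPM, a ratio of 2.70 (2.56 to 2.86). IRX6 had ratios of 1.60 in GelNB-CH and 2.27 in Matrigel, and FTO, an RNA demethylase gene, had ratios of 1.34 and 1.19.

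The other Iroquois cluster lies on chromosome 5 and holds IRX1 (5:3596054-3601403), IRX2 (5:2745845-2751662) and IRX4 (5:1877413-1887236). IRX1 stood at 170 CPM in GelNB-CH members and 158 CPM in the other gated otic cells, and at 193 and 183 CPM in Matrigel, ratios of 1.08 (1.03 to 1.12) and 1.06 (1.01 to 1.11). IRX2 had ratios of 1.08 in GelNB-CH and 1.23 in Matrigel. Over the other otic sets IRX1 ranged from 132 to 190 CPM in GelNB-CH and from 160 to 199 CPM in Matrigel, and it was highest in the NPY set of both libraries. Over the list of Iroquois genes and neighbours without IRX3, 6 of 6 compared genes were higher in members in both libraries, with median log2 ratios of 0.53 in GelNB-CH and 0.70 in Matrigel. Over all 12112 genes compared, 42.4% were higher and 27.8% lower in members in both libraries by any amount, and the median log2 ratio was 0.03 in each. Lists were compared for genes with at least 5 CPM in the larger group, as the log2 ratio of CPM plus 1, which is also the scale of every log2 ratio of a single gene below.

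Few genes differed by 2-fold between GPC5 IRX3 cells and the other gated otic cells in both libraries. Among 9914 genes with at least 10 CPM in the larger group in both libraries, 32 (0.323%) were higher in members by 2-fold or more in both libraries and 25 (0.252%) were lower. Without Scrublet-marked barcodes 35 were higher and 49 lower, and in members with no UMI of the other 3 sums 57 were higher and 82 lower. Cells sorted into sets by a few genes differ in genes that follow them, and these counts describe the sets. The gene with the largest shared ratio was FAM49A (2:16549459-16666331, minus strand), at 37.8 CPM in members and 8.47 CPM in the others in GelNB-CH, and at 74.2 and 16.8 CPM in Matrigel. Its ratios were 4.46 (3.98 to 5.02) and 4.43 (3.93 to 5.00), alike in the libraries although its level in Matrigel members was 1.96 times that in GelNB-CH members.

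SLITRK6, CTNNA2, CADPS2, DLGAP1 and PDZRN4 were 5 of the 12 genes named as higher. SLITRK6, a transmembrane protein whose loss in humans causes hearing loss and myopia, stood at 45.6 CPM in members and 15.5 CPM in the others in GelNB-CH, and at 64.1 and 21.6 CPM in Matrigel, ratios of 2.94 and 2.97. CTNNA2, the alpha-catenin best known from neurons, stood at 115 CPM in members against 39.8 CPM in the others in GelNB-CH, and at 294 against 95.9 CPM in Matrigel, ratios of 2.88 and 3.06. In thinned cells CTNNA2 was detected in 23.2% of members and 9.56% of the other gated otic cells in GelNB-CH, and in 50.8% and 21.8% in Matrigel. CADPS2, which primes secretory vesicles for release, had ratios of 2.60 in GelNB-CH and 3.46 in Matrigel. The postsynaptic scaffold gene DLGAP1 had ratios of 2.46 and 2.80, and PDZRN4 had 2.75 and 3.05. Neuron markers as a list were no higher in members, with 1 of 7 compared genes higher and 3 lower in both libraries.

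TGFB2 and PDGFD, which encode secreted ligands, were among the 12 genes named as higher in members. TGFB2, a ligand of the TGF-beta family, stood at 120 CPM in members and 52.2 CPM in the others in GelNB-CH, and at 113 and 48.9 CPM in Matrigel, ratios of 2.29 (2.17 to 2.42) and 2.32 (2.15 to 2.50). PDGFD, a ligand of PDGF receptor beta, had ratios of 2.40 in GelNB-CH and 2.93 in Matrigel. RSPO3, a secreted enhancer of WNT signalling, stood at 90.5 CPM in members against 42.8 CPM in the others in GelNB-CH, and at 144 against 66.7 CPM in Matrigel, ratios of 2.11 and 2.16. The RSPO3 difference was uneven within the members. RSPO3 stood at 135 CPM in GelNB-CH, against 209 CPM in Matrigel in members whose strongest second sum was that of the NPY set, but at 73.9 and 59.5 CPM in members with no UMI of the other sums. In Matrigel these last cells stood below the 66.7 CPM of the other gated otic cells. The remaining named genes were SLC30A10, a manganese exporter gene (ratios 2.37 and 2.77), ADAMTSL1 (2.35 and 3.65) and ANO3, an anoctamin gene (2.35 and 2.42).

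Genes known from prosensory and supporting cells differed one by one and not as a group. S100A1, a calcium-binding protein gene, stood at 821 CPM in members and 421 CPM in the others in GelNB-CH, and at 814 and 391 CPM in Matrigel, ratios of 1.95 (1.91 to 1.99) and 2.08 (2.03 to 2.14). JAG1, the NOTCH ligand of prosensory epithelium, stood at 195 CPM in members against 115 CPM in the others in GelNB-CH, and at 258 against 152 CPM in Matrigel, ratios of 1.69 and 1.70. The connexin genes of cochlear gap junctions were low, and GJB6 stood at 4.63 CPM in members against 1.38 CPM in the others in GelNB-CH, and at 11.1 against 0.931 CPM in Matrigel. GJB2 had ratios of 2.07 (1.66 to 2.58) and 3.50 (2.60 to 4.78). SOX2, in contrast, stood at 11.2 CPM in members and 13.0 CPM in the others in GelNB-CH, and at 16.5 and 22.4 CPM in Matrigel. Over the whole list 11 of 22 compared genes were higher and 9 lower in members in both libraries. The list medians were 0.04 and 0.01, close to the all-gene median.

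Acellular matrix genes leaned towards the members. All 8 compared genes of the tectorial and acellular matrix list were higher in members in both libraries, with medians of 0.36 in GelNB-CH and 0.42 in Matrigel. Cartilage markers leaned the same way, with 8 of 11 compared genes higher and 0 lower, at medians of 0.19 and 0.37. Scrublet marked 13.1% of members against 10.2% of the others in GelNB-CH, and 3.17% against 3.18% in Matrigel. The part of doublets here was not tested. OTOG, encoding otogelin of acellular membranes, had ratios of 1.48 (1.37 to 1.60) and 1.49 (1.36 to 1.64). OTOL1, encoding the otoconial collagen otolin, stood at 48.3 CPM in members and 27.4 CPM in the others in GelNB-CH, and at 54.1 and 25.9 CPM in Matrigel. Among the other glypicans, GPC3, GPC4 and GPC6 were also higher in members, by less than 2-fold, whereas GPC1 was split in direction. GPC3 had ratios of 1.48 in GelNB-CH and 1.90 in Matrigel, GPC4 of 1.41 and 1.83, and GPC6, the neighbour of GPC5 on chromosome 13, of 1.19 and 1.33. GPC1 stood at 42.5 CPM in members against 43.9 CPM in the others in GelNB-CH, and at 61.9 against 57.8 CPM in Matrigel. Of 8 compared glypicans and syndecans, 5 were higher and 0 lower in members in both libraries.

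Among early otic transcription factors, 14 of 25 compared genes were higher and 9 lower in members in both libraries, with medians of 0.14 in GelNB-CH and 0.24 in Matrigel. EYA4, a transcriptional cofactor gene of the placodes, had ratios of 1.23 in GelNB-CH and 1.18 in Matrigel. GATA3, needed for otic morphogenesis in the mouse, stood at 7.91 CPM in members and 4.20 CPM in the others in GelNB-CH, and at 9.74 and 4.61 CPM in Matrigel. DLX5, a factor of the dorsal wall, ran the other way, at 68.3 and 88.8 CPM in GelNB-CH and at 62.6 and 114 CPM in Matrigel. Retinoid enzymes were also split. ALDH1A1, which makes retinoic acid, had ratios of 2.23 in GelNB-CH and 1.71 in Matrigel, whereas CYP26A1, which degrades it, had 0.208 and 0.228. CYP26A1 stood at 4.49 CPM in members and 21.6 CPM in the others in GelNB-CH, and at 2.38 and 10.4 CPM in Matrigel.

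The genes named as lower in members were each high in 1 or more of the other otic sets. KRT17, a keratin of basal and stressed epithelium, stood at 19.8 CPM in members and 104 CPM in the others in GelNB-CH, and at 12.6 and 97.6 CPM in Matrigel, ratios of 0.190 and 0.129. Within the others its level was 310 CPM in the NPY set of GelNB-CH and 244 CPM in that of Matrigel. DCC, a netrin receptor gene, had ratios of 0.344 and 0.196, and ATF3, a stress-induced transcription factor gene, of 0.432 and 0.340. KRT17, DCC, CYTOR and ATF3 were all highest in the NPY set in both libraries. CNTN5, a neural adhesion gene, stood at 96.0 CPM in members and 281 CPM in the others in GelNB-CH, and at 34.5 and 119 CPM in Matrigel. CSMD1 had ratios of 0.386 and 0.118, VMO1 of 0.356 and 0.181 and HS3ST2, a heparan sulfate sulfotransferase gene, of 0.422 and 0.0969. CNTN5, CSMD1, VMO1 and HS3ST2 had their highest levels in the CALB1 or OTX2 set. Of the keratin list 0 of 7 compared genes were higher and 6 lower in members in both libraries.

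**Figure D2:**
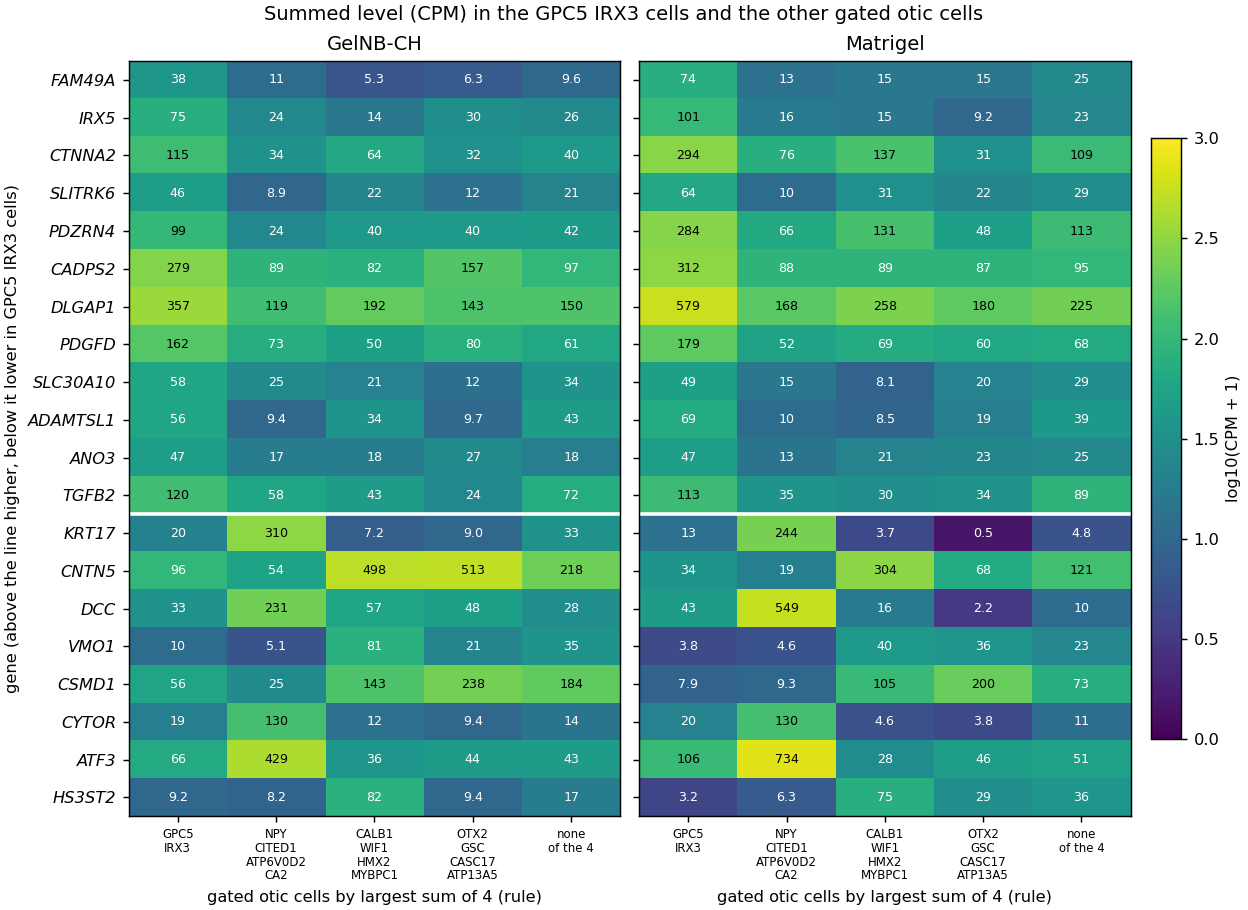
Summed level (CPM, printed in each cell and coloured on a log10 scale) of the 12 genes named as higher and the 8 named as lower in GPC5 IRX3 cells (rows), in each gated otic set (columns) of the GelNB-CH and Matrigel libraries. Genes above the white line are highest in the first column of both panels, and KRT17, DCC, CYTOR and ATF3 are highest in the NPY column.

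The members varied among themselves with the transcripts that chose them. IRX5 stood at 28.2 CPM in GelNB-CH members with GPC5 but no IRX3, 85.4 CPM in those with both and 68.9 CPM in those with IRX3 but no GPC5. In Matrigel the 3 values were 29.7, 110 and 93.0 CPM. In members with GPC5 alone IRX5 was thus nearest to the other gated otic cells, whose levels were 24.9 CPM for GelNB-CH and 17.2 CPM for Matrigel. SLITRK6 followed the same order in GelNB-CH, at 19.5, 51.3 and 44.2 CPM, and stood at 32.7, 64.6 and 77.7 CPM in Matrigel. For FAM49A the 3 values were 14.1, 44.0 and 28.9 CPM in GelNB-CH, and 25.9, 80.1 and 65.7 CPM in Matrigel. RSPO3 went with GPC5 instead, at 89.8, 98.3 and 28.9 CPM in GelNB-CH and at 148, 162 and 38.1 CPM in Matrigel. Members with GPC5 alone had shallower profiles, with medians of 9909.5 UMIs in GelNB-CH and 14858 UMIs in Matrigel, against 13414 and 18720 UMIs in members with both genes. Members with IRX3 alone were also shallower than those with both, with medians of 10573 UMIs in GelNB-CH and 15350.5 UMIs in Matrigel. An absent IRX3 or GPC5 UMI in a shallow cell does not show that the gene is off.

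In members with no UMI of the other 3 sums, a split that uses the rule itself, IRX5, SLITRK6 and DCC lay further from the other gated otic cells than in all members, whereas RSPO3 did not. IRX5 stood at 98.1 CPM in these cells in GelNB-CH and at 126 CPM in Matrigel. SLITRK6 stood at 95.5 and 95.2 CPM, against 45.6 and 64.1 CPM over all members. DCC stood at 5.88 and 3.16 CPM, against 32.9 and 43.3 CPM over all members. PDZRN4 in Matrigel stood at 280 CPM in these cells, against 284 CPM over all members. The strongest second sum in a member was most often that of the NPY set, in 685 GelNB-CH members (47.3%) and 440 Matrigel members (51.6%). The sum of the OTX2 set came second in 295 GelNB-CH members (20.4%) but in 62 Matrigel members (7.28%). In members with GPC5 alone, DCC stood at 54.0 CPM in GelNB-CH, against 186 CPM in Matrigel, KRT17 at 29.1 and 101 CPM and ATF3 at 78.1 and 339 CPM. KRT17 in the Matrigel members with GPC5 alone was thus not below its level in the other gated otic cells. NPY itself stood at 114 and 35.8 CPM in members with GPC5 alone, against 107 and 46.8 CPM in members with both genes.

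**Figure D3:**
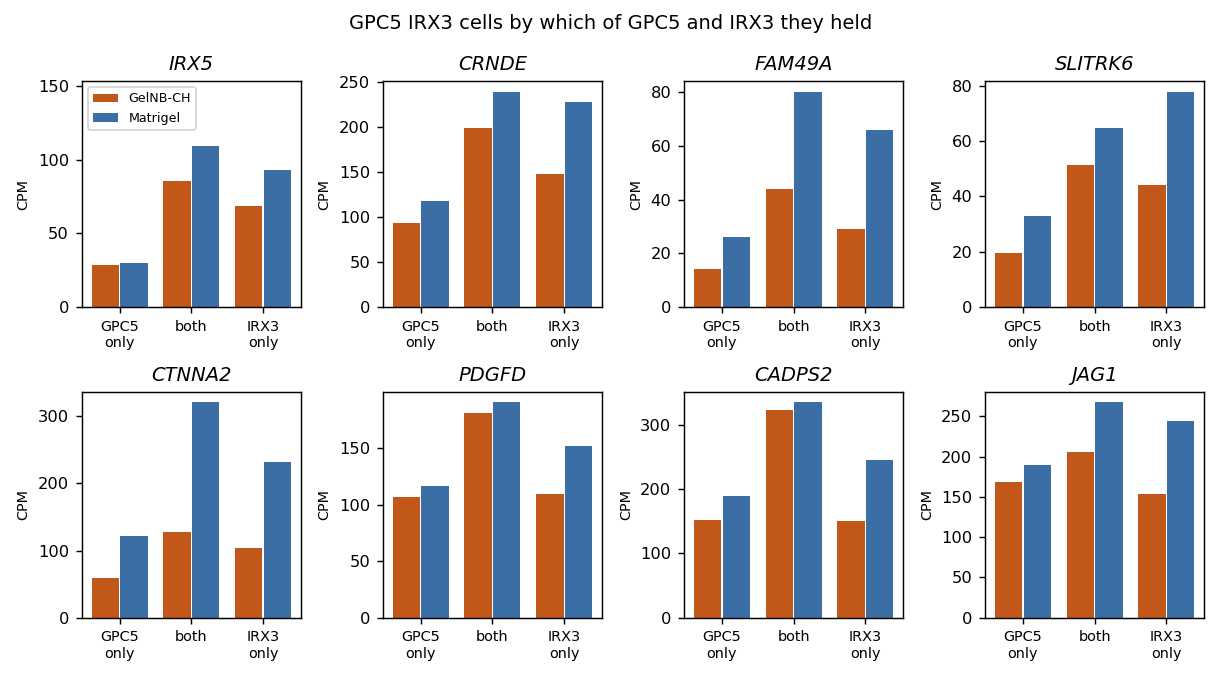
Summed level (CPM, vertical axes from 0) of 8 genes in GPC5 IRX3 cells of the GelNB-CH and Matrigel libraries, split by which of GPC5 and IRX3 was found (horizontal axes). IRX5 reads 28.2 CPM in GelNB-CH, against 29.7 CPM in Matrigel members with GPC5 alone, against 85.4 and 110 CPM in members with both.

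Between the matrices, GPC5 IRX3 cells differed in few genes. Of 10386 genes with at least 10 CPM in either library, 172 (1.66%) were higher by 2-fold or more in GelNB-CH members and 72 (0.693%) were lower. In cells of 8000 to 16000 UMIs 213 were higher and 117 lower, and in members with no UMI of the other sums 244 were higher and 173 lower. The median log2 ratio over all compared genes was -0.02. Of the 172 genes, 171 were also higher in GelNB-CH in the other gated otic cells, 63 of them by 2-fold, and of the 72 genes 70 were also lower there, 54 of them by 2-fold. Both cell sets come from the same pair of libraries, so this overlap is not a second measurement of the matrices.

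**Figure D4:**
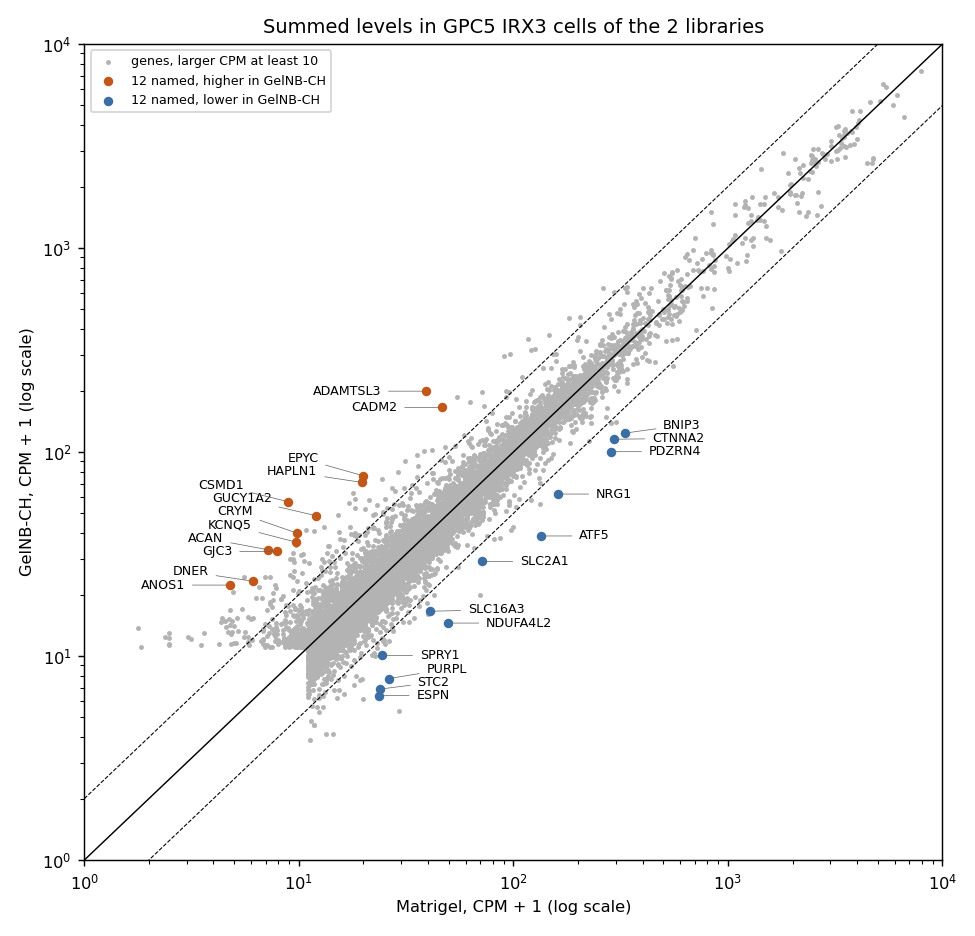
Summed level in GPC5 IRX3 cells of the GelNB-CH library (vertical axis, CPM + 1, log scale) against that of the Matrigel library (horizontal axis, CPM + 1, log scale), each point a gene with a larger CPM of at least 10. The solid line marks equal levels and the dashed lines 2-fold; the 12 named genes higher and the 12 lower in GelNB-CH are coloured, ADAMTSL3 at 198 CPM in GelNB-CH, against 38.1 CPM in Matrigel among them.

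Genes of hypoxia and glycolysis were lower in GelNB-CH members throughout the list. All 21 compared genes were lower in GelNB-CH, 11 of them by 2-fold, with a median log2 ratio of -0.97 in members and -0.85 in the other gated otic cells. Over all genes compared in members, 47% were higher in GelNB-CH by any amount. BNIP3, a mitophagy receptor gene and target of hypoxia-inducible factor (HIF), stood at 123 CPM in GelNB-CH members and 332 CPM in Matrigel members, a Matrigel over GelNB-CH ratio of 2.70 (2.58 to 2.83). SLC2A1, the glucose transporter gene, stood at 28.1 and 70.5 CPM, and the angiogenic factor gene VEGFA at 40.7 and 96.3 CPM. The glycolytic enzyme gene ENO1 stood at 263 and 554 CPM. Each of these 4 genes was lower in GelNB-CH by 2-fold or more. CA9, a carbonic anhydrase gene strongly induced by HIF, stood at 3.14 CPM in GelNB-CH, against 12.5 CPM in Matrigel. GAPDH was lower by less, at 1801 CPM in GelNB-CH, against 2195 CPM in Matrigel. In cells thinned to 5000 UMIs the list had a median of 15 UMIs per GelNB-CH member and 25 per Matrigel member, with 10th and 90th percentiles of 8 and 30 in GelNB-CH and 10 and 46 in Matrigel. Thus the matrices overlapped cell by cell, and the list median stayed between -1.04 and -0.85 under each alternative tried.

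Genes of the amino acid response driven by the transcription factor ATF4 had the lowest list median. All 19 compared genes were lower in GelNB-CH members, 10 of them by 2-fold, with a median log2 ratio of -1.04, and of -1.11 in the other gated otic cells. ATF5, a related factor gene, stood at 37.8 CPM in GelNB-CH members and 134 CPM in Matrigel members, a Matrigel over GelNB-CH ratio of 3.55 (3.27 to 3.85). CHAC1, which degrades glutathione, stood at 5.16 and 18.9 CPM, a ratio of 3.65 (2.93 to 4.58), and the pseudokinase gene TRIB3 at 3.14 and 13.5 CPM. The mitochondrial folate enzyme gene MTHFD2 stood at 42.1 and 98.1 CPM, and STC2, a secreted glycoprotein gene, at 5.89 and 22.9 CPM. ATF4 itself, which is largely controlled by translation, differed less, at 99.8 and 123 CPM. Per thinned cell the list had a median of 3 UMIs in GelNB-CH members and 4 in Matrigel members, but 90th percentiles of 7 and 16. The matrices were thus further apart in the upper tail of cells than at the median.

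Promoters of 4 genes of these lists, picked among those with a match, are printed to show the letters that HIF and the ATF4 family are known to bind. Each runs from 250 bases before to 50 after the start that RefSeq gives in GRCh38.p14, on the strand of the gene. Capitals mark ACGTG, the core of the HIF response element, in BNIP3 (chr10:131981874-131982173, minus strand) and ANKRD37 (chr4:185396591-185396890, plus strand), and TGATGNAA, the ATF4 composite element, in CHAC1 (chr15:40953221-40953520, plus strand) and ATF3 (chr1:212565157-212565456, plus strand). Both strands were searched.
BNIP3: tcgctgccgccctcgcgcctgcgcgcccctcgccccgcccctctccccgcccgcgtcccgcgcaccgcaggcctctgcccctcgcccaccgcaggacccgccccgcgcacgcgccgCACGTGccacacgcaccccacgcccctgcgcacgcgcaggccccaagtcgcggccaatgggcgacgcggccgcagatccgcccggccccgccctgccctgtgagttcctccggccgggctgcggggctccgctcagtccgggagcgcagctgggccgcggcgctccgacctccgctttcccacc
ANKRD37: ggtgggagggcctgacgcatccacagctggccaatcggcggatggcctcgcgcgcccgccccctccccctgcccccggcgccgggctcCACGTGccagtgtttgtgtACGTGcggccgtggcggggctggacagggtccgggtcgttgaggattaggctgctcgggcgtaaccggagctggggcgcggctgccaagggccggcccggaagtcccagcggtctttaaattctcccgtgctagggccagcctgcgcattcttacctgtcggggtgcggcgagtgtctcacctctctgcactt
CHAC1: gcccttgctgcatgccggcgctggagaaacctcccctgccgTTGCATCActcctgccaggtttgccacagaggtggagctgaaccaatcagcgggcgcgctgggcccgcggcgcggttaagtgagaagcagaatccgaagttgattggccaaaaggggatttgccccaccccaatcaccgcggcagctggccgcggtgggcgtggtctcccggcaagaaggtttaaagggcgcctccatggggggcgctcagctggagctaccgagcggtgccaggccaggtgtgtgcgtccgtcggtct
ATF3: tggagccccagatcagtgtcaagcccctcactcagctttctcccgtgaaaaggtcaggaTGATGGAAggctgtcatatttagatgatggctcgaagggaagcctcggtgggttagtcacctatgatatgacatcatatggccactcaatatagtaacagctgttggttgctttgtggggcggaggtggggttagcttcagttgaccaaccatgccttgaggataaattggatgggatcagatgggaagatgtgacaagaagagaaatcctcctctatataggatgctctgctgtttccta
ACGTG was found in 10 of 18 matched promoters of the hypoxia list (55.6%) and in 5900 of all 27305 promoters of that length (21.6%). TGATGNAA was found in 4 of 17 matched promoters of the ATF4 list (23.5%) and in 1003 of 27305 (3.67%). The 2 BNIP3 matches are the overlapping strands of a single CACGTG, and ANKRD37 has that palindrome and 1 further match. Both lists were drawn up from genes known for these responses, so the larger shares are no result of these data. SLC2A1, ENO1, ATF5, TRIB3, MTHFD2 and STC2, named above, had no match. A match is a description of letters and shows no binding. ANKRD37 stood at 5.12 CPM in GelNB-CH members and 9.19 CPM in Matrigel members, a Matrigel over GelNB-CH ratio of 1.80 (1.40 to 2.31). ATF3 stood at 66.5 and 106 CPM, a ratio of 1.59 (1.48 to 1.71). ATF3 did not keep this order in every subset of members. Without UMIs of the other sums its GelNB-CH level was the higher, 36.4 against 25.6 CPM. The same held with IRX3 alone (47.3 against 36.5) and with the OTX2 sum second (42.6 against 22.9). Matrigel was the higher with GPC5 alone (78.1 against 339) or both genes (66.3 against 96.4). It was also higher with the NPY (89.3 against 160) or CALB1 sum second (42.5 against 45.8).

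Cartilage genes were higher in GelNB-CH members, with a part of the gap in barcodes that Scrublet marked. All 11 compared cartilage markers were higher in GelNB-CH, 5 by 2-fold, with a median log2 ratio of 0.87 in members and 1.13 in the other gated otic cells. ACAN, the aggrecan gene, stood at 32.2 CPM in GelNB-CH members and 6.20 CPM in Matrigel members, a ratio of 5.19 (4.25 to 6.40). HAPLN1, which links aggrecan to hyaluronan, stood at 70.0 and 18.7 CPM, and the matrilin gene MATN1 at 55.4 and 16.2 CPM. COL2A1, a collagen gene that otic epithelium also expresses, stood nearer, at 975 and 835 CPM. Without the Scrublet-marked barcodes the median was 0.54, and the ACAN log2 ratio was 0.81 where it had been 2.21. In members with no UMI of the other 3 sums the list median was 0.55. ACAN stood at 730 CPM in the GelNB-CH library and 685 CPM in the Matrigel library in cells rich in ACAN and matrilins, and at 34.6 and 3.49 CPM in cells with at least 20 UMIs of the neuronal gene STMN2. ACAN was found in 5.08% and 1.07% of thinned members, against 5.32% and 0.941% of those STMN2-rich cells. The intervals of these shares, which cover counting error only, overlapped in each library. No ACAN level above that of cells that should lack the gene is read from them, and equal levels are not shown. Scrublet marked 15.8% of the STMN2-rich cells in GelNB-CH and 9.39% in Matrigel, so these cells do not measure free RNA alone. The part of doublets and free RNA in the cartilage genes was not tested.

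Other genes with large ratios behaved in different ways when barcodes were left out. ADAMTSL3, a secreted matrix protein gene, stood at 198 CPM in GelNB-CH members and 38.1 CPM in Matrigel members, a ratio of 5.19 (4.79 to 5.64). CSMD1 stood at 56.1 and 7.91 CPM, a ratio of 7.09 (5.96 to 8.50), with a log2 ratio of 2.68 that was 1.10 in cells of 8000 to 16000 UMIs. CSMD1 stood at 126 CPM in GelNB-CH members whose strongest second sum was that of the OTX2 set and at 11.9 CPM in those where it was that of the NPY set. The part of these unequal subsets in its ratio was not tested. CRYM, at 39.0 and 8.85 CPM, had a log2 ratio of 2.02 that was 0.48 without Scrublet-marked barcodes, and EPYC, at 75.5 and 18.9 CPM, had 1.94 and 0.98. KCNQ5, a potassium channel gene at 35.1 and 8.74 CPM, had 1.89 and 0.95 likewise. The log2 ratios of CRYM, EPYC and KCNQ5 were therefore all below 1 without those barcodes, whose share was larger in GelNB-CH. The remaining named genes were ANOS1 (21.3 and 3.76 CPM), GJC3 (31.6 and 6.92), DNER (22.2 and 5.15), GUCY1A2 (47.7 and 11.1) and CADM2 (165 and 45.5).

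Among genes lower in GelNB-CH members, some were also higher in members than in the other gated otic cells. CTNNA2 stood at 115 CPM in GelNB-CH, against 294 CPM in Matrigel, a Matrigel over GelNB-CH ratio of 2.57 (2.44 to 2.69), and PDZRN4 at 99.4 and 284 CPM, a ratio of 2.85. Both were nearly as far apart between the matrices in the other gated otic cells, with ratios of 2.41 and 2.57. ESPN, an actin-bundling gene of hair cell stereocilia, stood at 5.41 and 22.5 CPM, a ratio of 4.17 (3.37 to 5.18). After thinning it was detected in 2.72% of GelNB-CH members, against 10.6% of Matrigel members, while POU4F3 was near 0 in both. The named genes also held the hypoxia-induced genes NDUFA4L2 (13.5 and 48.7 CPM) and SLC16A3 (15.6 and 39.9), the p53-responsive RNA PURPL (6.76 and 25.2) and the FGF feedback gene SPRY1 (9.07 and 23.4). NRG1, a ligand of ERBB receptors, stood at 61.2 and 161 CPM, with a log2 ratio of -1.38 that was -0.51 in cells of 8000 to 16000 UMIs and -0.17 in members with no UMI of the other sums.

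Otic transcription factors were split in direction between the matrices. Of 26 compared otic transcription factors, 12 were higher and 14 lower in GelNB-CH members, none by 2-fold, and the median log2 ratio was -0.09. IRX5 stood at 74.7 CPM in GelNB-CH members and 101 CPM in Matrigel members, and PAX2 at 430 and 518 CPM. TBX2 stood at 81.1 and 125 CPM, while NR2F2, an orphan nuclear receptor gene, stood at 256 and 137 CPM. GPC5, which chose the cells, stood at 1120 and 1310 CPM. IRX3, which also chose them, was detected in 59.3% of thinned GelNB-CH members and 71.9% of thinned Matrigel members. In the NOTCH pathway 10 of 15 compared genes were higher in GelNB-CH and 5 lower. HES1, a NOTCH target, had a ratio of 1.41, whereas JAG1 stood at 195 and 258 CPM. HES5, also a NOTCH target, stood at 30.9 and 8.41 CPM, but was found in 3.72% and 2.14% of thinned members, below the 8.05% and 6.56% of the COL1A2-rich cells, and no difference is read from it.

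Heat shock genes were higher in GelNB-CH members for 9 of 11 compared genes, with a median log2 ratio of 0.22, and HSPA1A, the inducible chaperone gene, stood at 196 CPM in GelNB-CH, against 70.8 CPM in Matrigel. Endoplasmic reticulum chaperones were higher for 11 of 13 genes (median 0.26), and mitochondrially encoded genes for 10 of 13 (median 0.25). The interferon response list was higher for 8 of 8 genes, none by 2-fold, with a median of 0.47. Over all genes compared in members, 47% were higher in GelNB-CH. In the other gated otic cells the medians were 0.37 for heat shock, 0.22 for endoplasmic reticulum chaperones, 0.27 for mitochondrial genes and 0.31 for interferon. The shifts were thus not particular to the members. After thinning, HSPA1A was found in 38.1% and 20.5% of members, and in 64.5% and 24.9% of the STMN2-rich cells. Mesenchyme markers were higher for 9 of 9 compared genes, at a summed 133 CPM in GelNB-CH members and 68.7 CPM in Matrigel members. Their median was 0.98, but 0.20 over 4 genes without Scrublet-marked barcodes and 0.35 in cells of 8000 to 16000 UMIs. Interstitial matrix genes had 15 of 16 higher with a median of 0.68, which was 0.07 without Scrublet-marked barcodes. The basement membrane list, which Matrigel itself supplies as protein, had 12 of 19 genes higher and 7 lower in GelNB-CH members, with a median of 0.07.

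**Figure D5:**
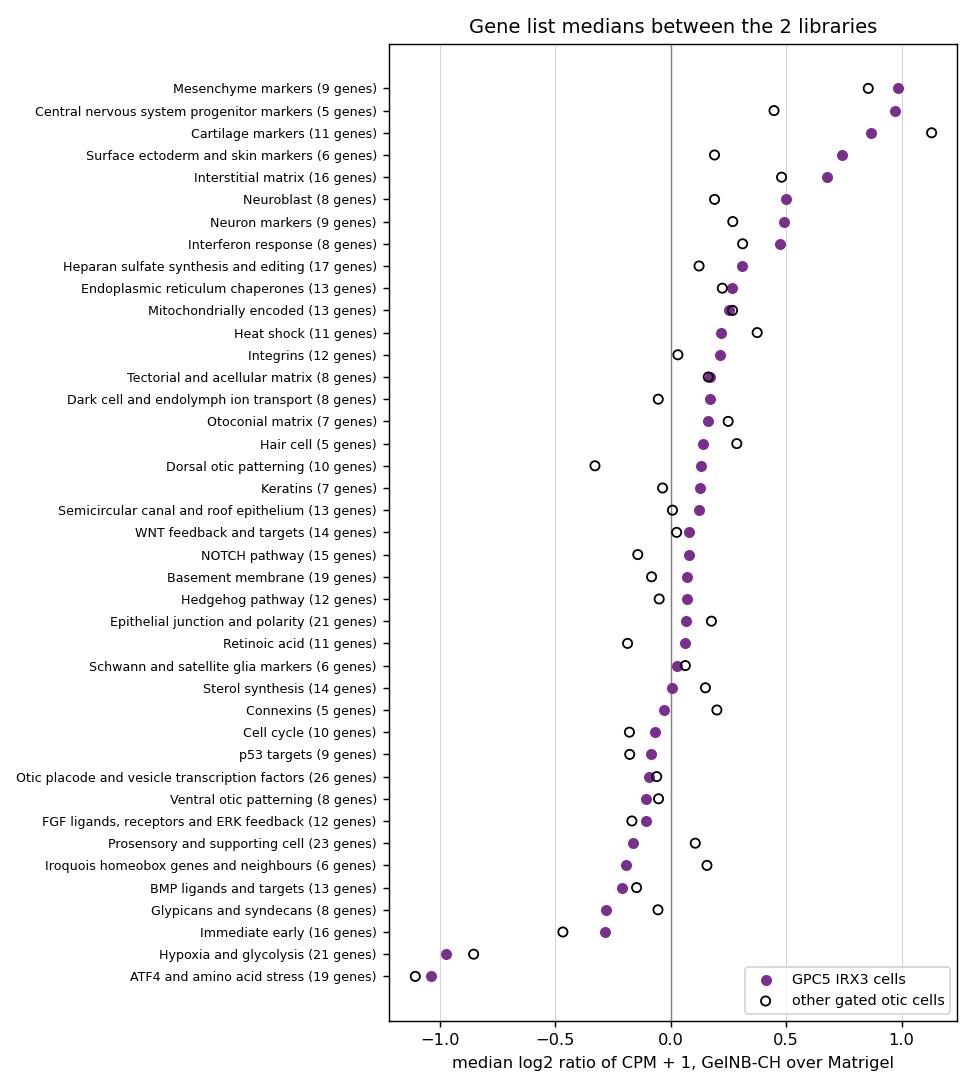
Median log2 ratio of CPM + 1, GelNB-CH over Matrigel (horizontal axis), for each gene list with at least 5 compared genes (vertical axis), in GPC5 IRX3 cells (filled points) and in the other gated otic cells (open points). The hypoxia and ATF4 lists lie lowest, at -0.97 and -1.04 in members, while the mesenchyme and cartilage lists lie at 0.98 and 0.87.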

How the data were processed

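Per the labels' protocols, single-cell RNA was captured with the 10x 3' assay, version 3.1, and barcodes were filtered with Cell Ranger 4.0.0, while the file headers name version 7.1.0. STAR and GRCh38 are named in the submitters' processing notes. The deposited values are raw UMI counts per gene and barcode, with 36601 genes in each library. The rule was applied to these counts as deposited. UMIs were summed over the cells of a set and divided by the set's total to give CPM. Ratios carry exact conditional binomial intervals and shares carry Clopper-Pearson intervals, both at 95% and for counting error only; UMIs remove PCR copies. With 1 library per group no model was fitted and no p-value is given.

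The members and the 43 gene lists were chosen with earlier results of these data known, so their counts are a description. Named genes are the 12 largest ratios in each direction between libraries (larger CPM at least 20, interval beyond 2-fold), the 12 largest and 8 smallest shared ratios against the other gated otic cells, and the 2 at each end of every list, without ribosomal, mitochondrial, clone-named and rule genes. Other list genes and CRNDE, S100A1, RSPO3 and OTOL1 were named after their values were seen. Coordinates are from GENCODE v29, in which 34616 of the listed genes were matched by ID.

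Doublets were marked with Scrublet (in scanpy 1.11.5), which marked 14.2% of all barcodes for GelNB-CH, against 6.55% for Matrigel, and were kept in the values unless stated. Alternatives were TMM scaling (edgeR 4.0.16, used for scaling alone), thinning to 5000 UMIs, cells of 8000 to 16000 UMIs, the mean of single cells, other UMI, quality and CPM limits, other pseudocounts, and leaving out Scrublet-marked or shared barcodes or members with UMIs of the other sums. The calculation was tested on simulated data with counting error alone, so spread between cells was not part of that test. Sums and intervals used scipy 1.17.1 and numpy 2.4.6 under Python 3.11.15, with pandas 2.3.3, and R 4.3.3 ran edgeR.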

Additional observations from a re-analysis of the deposited data

Results flagged for a closer look

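Each of 4 genes differed in opposite directions in 2 settings, and none of these differences was tested, since each value comes from 1 library. The other gated otic cells differed in make-up between the libraries, with the OTX2 set at 969 of 4781 cells in GelNB-CH and 102 of 1194 in Matrigel. The part of this in the ratios was not tested. IRX5 had a GelNB-CH over Matrigel ratio of 0.736 in GPC5 IRX3 cells and 1.45 in the other gated otic cells. PCDH15, the protocadherin of hair cell tip links, had ratios of 0.627 in GPC5 IRX3 cells and 1.63 in the others, at 13.2 CPM in GelNB-CH members against 21.0 CPM in Matrigel members, and 15.3 against 9.41 CPM in the others. ADAMTSL3 in members over the other gated otic cells had a ratio of 1.29 in GelNB-CH and 0.457 in Matrigel. ESPN had member over other ratios of 0.798 in GelNB-CH and 1.72 in Matrigel.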

How the results depend on the processing

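No paired analysis was possible because each matrix has 1 library. No list median of at least 0.3 in size turned its direction under any alternative tried. Nor did any gene named for the largest or smallest ratios between libraries or against the other gated otic cells. Smaller list medians could change sign, as did immediate early genes, from -0.28 to 0.19 in cells of 8000 to 16000 UMIs. Directions of the other named genes were not tested under each. RSPO3 in Matrigel stood at 59.5 CPM in members with no UMI of the other sums, below the other gated otic cells. The share of kept cells in GelNB-CH was 7.64% with at least 2 UMIs in the rule, 5.45% with at least 5, 5.68% after thinning, 7.25% with at least 2000 genes and at most 10% mitochondrial UMIs, and 4.76% with GPC5 alone. The Matrigel share was 8.68% with 2 UMIs, 7.13% with 5, 6.46% after thinning and 5.52% with GPC5 alone. The share of gated otic cells in GelNB-CH was 26.2% with 2 UMIs, 18.6% with 5, 17.2% after thinning and 16.3% with GPC5 alone, and in Matrigel 44.5%, 36.6%, 31.7% and 28.3%. Genes higher in GelNB-CH members numbered 274 with a CPM limit of 5 and 113 with 20. Genes lower in GelNB-CH members numbered 127 with a limit of 5, 44 with 20, 117 in cells of 8000 to 16000 UMIs and 173 in members with no UMI of the other sums. Against the other gated otic cells those members gave 57 genes higher and 82 lower, and 49 were lower without Scrublet-marked barcodes. The cartilage median was 0.54 without Scrublet-marked barcodes and 0.55 in members with no UMI of the other sums. Fewer cells and UMIs enter these subsets, and otherwise the cause was not tested. Leaving out shared barcodes, members with no UMI of the other sums and, for the lists, Scrublet-marked barcodes were alternatives chosen after seeing the data. The TMM factors, by which CPM is divided, had a log2 ratio of -0.04 for GelNB-CH over Matrigel members, and of 0.04 in GelNB-CH and 0.02 in Matrigel for members over the others. Counting error and 1 library per matrix limit every comparison, and genes below 5 CPM were not compared.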

Other observations

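Ion transport genes were not a mark of GPC5 IRX3 cells. Of 7 compared genes of dark cells and endolymph ion transport, 0 were higher and 5 lower in members than in the other gated otic cells in both libraries. SLC26A4, the anion exchanger gene known from endolymphatic sac and Pendred syndrome, stood at 11.3 CPM in members and 15.1 CPM in the others in GelNB-CH, and at 1.49 and 5.05 CPM in Matrigel.

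Among enzymes that build and edit heparan sulfate, the chains that glypicans carry, 10 of 17 compared genes were higher and 4 lower in members in both libraries, with median log2 ratios of 0.20 in GelNB-CH and 0.10 in Matrigel. HS3ST4 had a ratio of 1.46 (1.33 to 1.59) in GelNB-CH, against 1.91 (1.65 to 2.20) in Matrigel. SULF1, an enzyme that removes sulfate groups outside the cell, stood at 55.5 CPM in members and 87.9 CPM in the others in GelNB-CH, and at 29.3 and 64.3 CPM in Matrigel. Interferon-induced genes were mostly lower in members, for 6 of 8 compared genes in both libraries, and ISG15 stood at 123 CPM in members against 206 CPM in the others in GelNB-CH, and at 94.2 against 171 CPM in Matrigel.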
